A study of Homo sapiens with 5 samples.

Results

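The MYC and PVT1 locus on human chromosome 8 was examined in 5 lists of chromatin immunoprecipitation (ChIP-seq) peaks from Mia PaCa-2 cells, a cell line established from a human pancreatic tumour. Its members were chosen by position from the deposited peaks: every peak in the MYC and PVT1 gene bodies or within 1 Mb of them, from 126735434 to 129101256 on chromosome 8 (hg38), a window of 2.37 Mb. The rule took 26 of 51322 peaks: 12 of 12040 for MED30, 4 of 13172 for MED17, 2 of 4621 for MYC with doxycycline, 2 of 7158 for MYC without doxycycline and 6 of 14331 for MYC in parental cells. Since measured peaks chose the members, their number and place are given as a description.

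MED30 and MED17, subunits of the Mediator complex, were mapped in parental cells in normal culture after fixation with 2 mM disuccinimidyl glutarate for 20 min followed by 1% formaldehyde for 10 min. MYC was mapped after formaldehyde alone in 3 groups: a "teton shMED30" line, which carries a hairpin against MED30 that doxycycline switches on, after 3 days with doxycycline; the same line without it; and the parental cells. Each group was 1 library of 1 cell line, so no spread between replicates can be estimated, no difference below has a replicate check, and none is tested. The Mediator lists and the MYC lists thus differ in fixation as well as in antibody. MED30 transcript or protein was not analysed here, so the depletion itself could not be checked.

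MYC is a transcription factor that binds DNA as a dimer with MAX and drives genes for growth and ribosome production; pancreatic cancers commonly depend on it. PVT1 is a long noncoding RNA gene next to MYC that is often gained together with it in tumours, hosts several microRNAs and is a known target of MYC protein. Mediator links transcription factors at enhancers and promoters to RNA polymerase II, and the gene-poor stretch on both sides of MYC is known for tissue-specific enhancers that act on it over long distances. Both genes are transcribed towards higher coordinates, so the lower end of each is its start.

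The libraries differed in the lowest local background, which was taken here as a measure of depth. The lowest that could be recovered from a list was 1.65 fragments for MED30, 1.60 for MED17, 0.186 for MYC with doxycycline, 0.310 without it and 2.56 for parental MYC. Read totals were not used, and an input control, if there was one, could change this measure. The largest q was close to 0.1 in both lists of the shMED30 line (0.0979 with doxycycline and 0.0993 without) and close to 0.05 in the other 3 (0.0498 for MED30, 0.0489 for MED17 and 0.0499 for parental MYC). Of 4 marker genes of the line (VIM, ZEB1, KRT8 and KRT18), all 4 had a MED30 and a MED17 peak within 1 kb of a gene end and 3 a parental MYC peak, KRT8 and KRT18 sharing theirs, whereas none of 5 acinar, 4 islet, 4 immune and 4 fibroblast markers had a peak there in any list.

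The 26 peaks merged into 17 sites. MED30 held the most sites, the MYC gene carried both Mediator subunits and no MYC peak, and the strongest MYC peaks of the locus lay at the start of PVT1. Of the 17 sites, 12 belonged to 1 list (8 of MED30, 1 of MED17 and 3 of MYC) and 5 to 2 or more lists. Only 1 site held MED30, MED17 and parental MYC together, 441 kb from the start of MYC, and only 1 held all 3 MYC lists, at the start of PVT1. By position, 10 sites lay below MYC, 3 at the start of PVT1 or inside it, and 2 beyond PVT1; the MYC start and a site between the genes made up the rest.

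**Figure D1:**
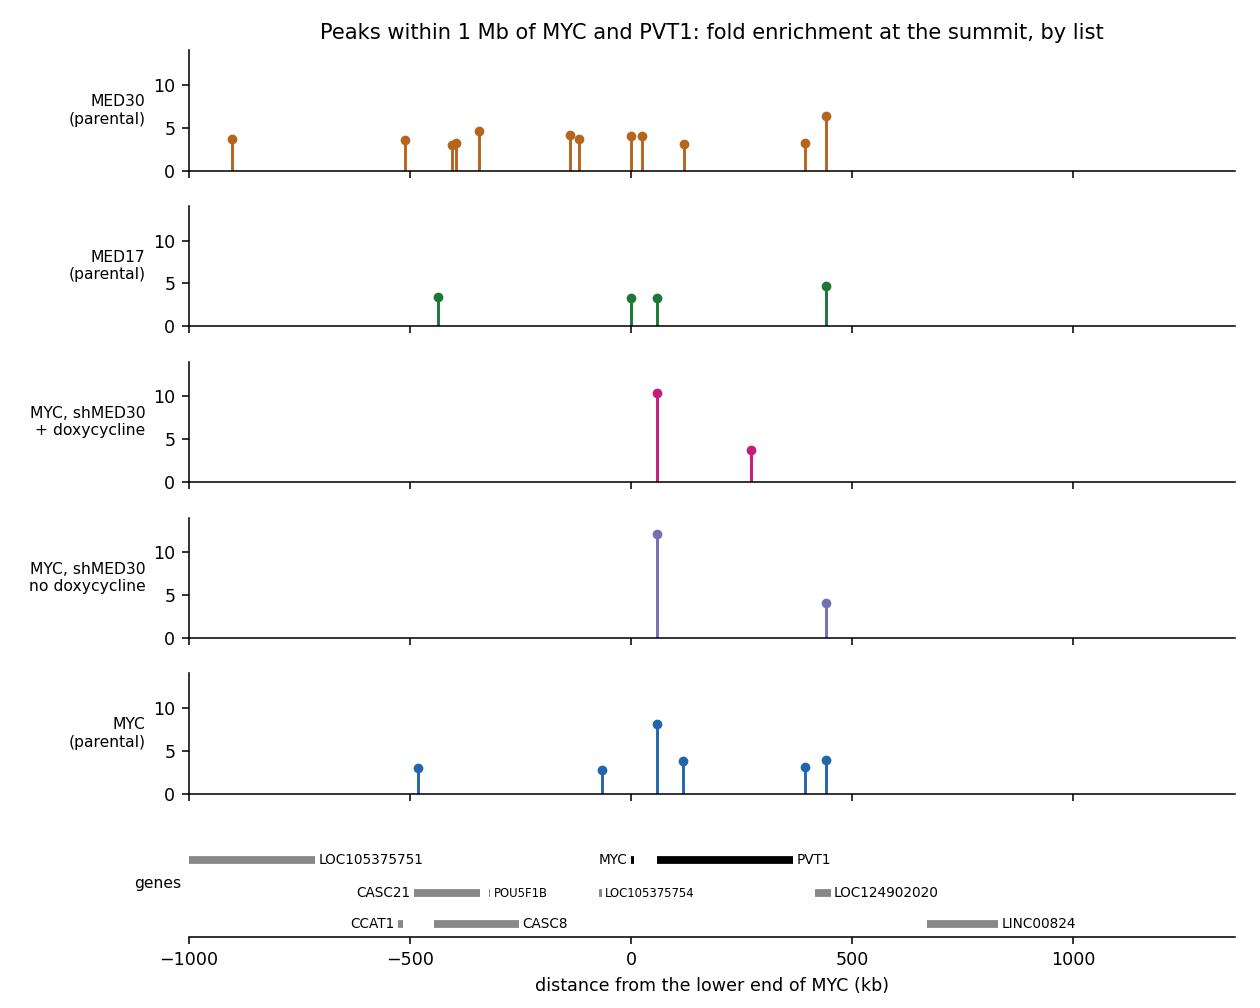
Each stem is a peak, placed by the distance of its summit from the lower end of MYC in kb (horizontal axis), with its deposited fold enrichment as the height, in 1 panel per list; bars below mark genes. MED30 peaks are spread on both sides of MYC, and the tallest stems are the MYC peaks at the start of PVT1, at 10.4 with doxycycline, 12.1 without it and 8.13 in parental cells.

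The MYC gene (127735434 to 127742951, 7.52 kb) had a MED30 peak at 127735092 to 127736400 and a MED17 peak at 127736174 to 127737206. Fold enrichment, the authors' ratio of fragments at the summit to the local background, was 3.99 for MED30 and 3.33 for MED17. The summits lay 786 bp (MED30) and 929 bp (MED17) past the start of MYC, 143 bp from each other, and the peaks shared 227 bp. Neither was high for its list by fold, at percentile 22.7 of the MED30 list and 5.50 of the MED17 list.

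By the number of fragments at the summit the same peaks ranked high. MED30 had 48 fragments there (exact Poisson 95% interval 35.4 to 63.6), at percentile 94.2 of its list, and MED17 had 38 (26.9 to 52.2), at percentile 86.1. These intervals, like all others here, cover counting error only. The local background around the summit was 6.83 times the lowest of the MED30 list and 6.69 times the lowest of the MED17 list. Among peaks on chromosome arms (main chromosomes outside 29 gene-free stretches of over 2 Mb) those backgrounds stood at percentiles 98.6 for MED30 and 98.4 for MED17. Fold and summit count therefore gave different ranks at MYC, with a background high in both libraries; what raised it was not tested.

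No MYC list had a peak in the MYC gene. The nearest MYC peaks to the gene body lay 51.4 kb away with doxycycline, 51.4 kb away without it and 51.3 kb away in parental cells, all at the start of PVT1. A MED30 peak is found within 1 kb of an end of 41.7% of the 20037 protein-coding genes, a MED17 peak of 47.9%, and a MYC peak of 4.71% with doxycycline, 8.55% without it and 39.0% in parental cells. Of the 7805 protein-coding genes with both Mediator subunits there, 20.0% had no parental MYC peak, as at MYC. With gene ends taken within 0.5 kb, only MED30 counted at MYC, since the MED17 peak begins past that distance.

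PVT1 (127794524 to 128101256, 307 kb) begins 51.6 kb past the end of MYC, and its start held MYC peaks in all 3 MYC lists, a MED17 peak and no MED30 peak. The MYC peak spanned 127794365 to 127794741 with doxycycline (fold 10.4), 127794387 to 127794724 without it (fold 12.1) and 127794229 to 127794826 in parental cells (fold 8.13). Summits lay 23 bp past the start of PVT1 with doxycycline, 7 bp past it without doxycycline and 23 bp before it in parental cells. All 3 MYC summits thus fell within 46 bp of each other.

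**Figure D2:**
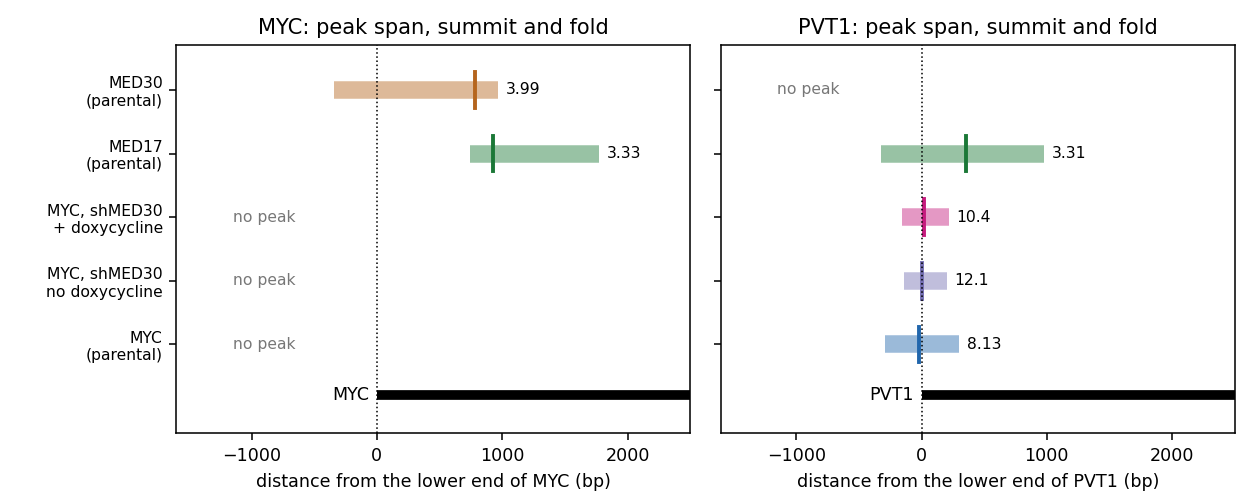
Bars span the peaks at the lower ends of MYC (left) and PVT1 (right), the tick in each bar is the summit and the number beside it the deposited fold enrichment; the horizontal axes give the distance from the gene's lower end in bp, with 1 row per list. MYC has MED30 and MED17 peaks and no peak in the MYC lists, and PVT1 has a broad MED17 peak, 3 MYC peaks centred on its start and no MED30 peak.

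The PVT1 start was among the strongest peaks of each MYC list. By fold it ranked 126 of 4621 with doxycycline (percentile 97.3), 163 of 7158 without it (percentile 97.7) and 1020 of 14331 in parental cells (percentile 92.9). On the arms of chromosome 8 it ranked 2 of 77 with doxycycline, 1 of 78 without it and 16 of 318 in parental cells. Among long noncoding RNA genes with a MYC peak at an end it ranked 11 of 261 with doxycycline, 13 of 445 without it and 130 of 2141 in parental cells. Such a peak is found at 1.43% of the 18303 long noncoding RNA genes with doxycycline, 2.43% without it and 11.7% in parental cells.

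Fragments at the PVT1 summit were fewest in the shallowest library. There were 20 with doxycycline (exact Poisson 95% interval 12.2 to 30.9), 27 without it (17.8 to 39.3) and 82 in parental cells (65.2 to 102). Divided by the lowest background of the library, the summit stood at 108 with doxycycline (65.7 to 166) and at 87.1 without it (57.4 to 127), and these intervals overlap. In parental cells the same ratio was 32.0 (25.4 to 39.7), below both. The median peak of each whole list had 6 fragments with doxycycline, 8 without it and 22 in parental cells. The lowest backgrounds of those lists were 0.186, 0.310 and 2.56. The ratio was thus lower in parental cells for the median peak as well, and its lower value is not particular to PVT1. The local background at the PVT1 summit was 5.52 times the lowest with doxycycline, 4.21 times without it and 3.59 times in parental cells.

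MED17 covered the PVT1 start with a broad peak that was weak by fold (127794200 to 127795502, fold 3.31, percentile 5.16). By its 24 fragments at the summit this peak stood at percentile 55.4 of the list, over a local background 4.09 times the lowest. Its summit lay 352 bp past the start, 329 bp from the MYC summit with doxycycline, 345 bp from that without it and 375 bp from that in parental cells. Among long noncoding RNA genes with a MED17 peak at an end, 14.2% of all of them, PVT1 ranked 2543 of 2603 by fold. For MED30 the nearest peaks were 33.2 kb below and 58.5 kb above the PVT1 site, and a MED30 peak is found at 12.9% of long noncoding RNA genes. Of the 731 genes with a MYC peak at an end in all 3 MYC lists, 76 (10.4%) had no MED30 peak there; 143 of the 731 were long noncoding RNA genes, of which 26 had no MED30 peak and 114 had both subunits.

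Inside PVT1 there were 2 more sites, neither shared by the subunits. One held MED30 (127854024 to 127854378, fold 3.14, 16 fragments at the summit) and parental MYC (127853835 to 127854363, fold 3.81, 28 fragments), 119 kb past the MYC start, with 340 bp shared and summits 364 bp apart. The other was a MYC peak with doxycycline alone at 128007225 to 128007436, 272 kb past the MYC start, with fold 3.74, q 0.0458 and 4 fragments at the summit (exact Poisson 95% interval 1.09 to 10.2). PVT1 fills 13.0% of the window.

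Beyond PVT1, the site that held both Mediator subunits and parental MYC lay inside LOC124902020, a long noncoding RNA gene (128150924 to 128186762). MED30 had its strongest peak of the window by fold there (128176502 to 128177542, fold 6.32, percentile 83.3, 39 fragments), ranking 41 of 311 MED30 peaks on the arms of chromosome 8. MED17 had fold 4.71 at 128176566 to 128177473 (percentile 41.9, 22 fragments), its strongest of the window as well. MYC had fold 4.02 without doxycycline at 128176724 to 128176985 (5 fragments) and fold 3.88 in parental cells at 128176636 to 128177393 (23 fragments), and no peak with doxycycline. The MED17 summit was 22 bp from the MYC summit without doxycycline and 185 bp from that in parental cells, while the MED30 summit lay 589 bp from that of MED17. A weaker site between PVT1 and LOC124902020 held MED30 (128127665 to 128127985, fold 3.25) and parental MYC (128127884 to 128128119, fold 3.16) with summits 103 bp apart; the nearest gene was MIR1208, a microRNA gene.

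Below MYC, 7 of 10 sites were of MED30, 1 of MED17 and 2 of parental MYC, and no site was shared by any of the lists. This stretch holds CCAT1, CCAT2, CASC8, CASC19, CASC21, PCAT1, PCAT2 and PRNCR1, long noncoding RNA genes first described in colon and prostate cancers, and POU5F1B, a retrogene copy of the gene for the pluripotency factor OCT4. In the body of CASC21, most of which CASC8 overlaps, MED30 had 3 peaks, at 127330240 to 127330656 (fold 2.96), 127340291 to 127341195 (fold 3.23) and 127391197 to 127391619 (fold 4.67). In the same region lay a MED17 peak at 127298600 to 127298963 (fold 3.38, 19 fragments) and a parental MYC peak at 127252450 to 127252793 (fold 3.01, 22 fragments). The MED30 and MED17 peaks nearest each other there were 31.3 kb apart.

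Closer to MYC, MED30 had peaks outside any annotated gene at 127596039 to 127596735 (fold 4.20, 24 fragments) and 127618379 to 127618860 (fold 3.65, 25 fragments), 139 kb and 117 kb below the MYC start. One more lay 3.42 kb from CCAT1 (127222692 to 127223279, fold 3.59, 26 fragments), 512 kb below MYC. The outermost MED30 peak of the window, within LOC105375751 and LOC105375753, was at 126833512 to 126833928 (fold 3.66, 11 fragments), 902 kb below MYC. Between the 2 genes, 25.4 kb past the MYC start, a MED30 peak stood alone at 127760665 to 127761010 (fold 4.02, 17 fragments). The 8 peaks at sites of MED30 alone had folds of 2.96 to 4.67 (median 3.65) and 11 to 26 fragments at the summit. The parental MYC peak nearest to MYC on this side was at 127668780 to 127669154, at the upper end of LOC105375754 (fold 2.75, percentile 1.52).

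**Figure D3:**
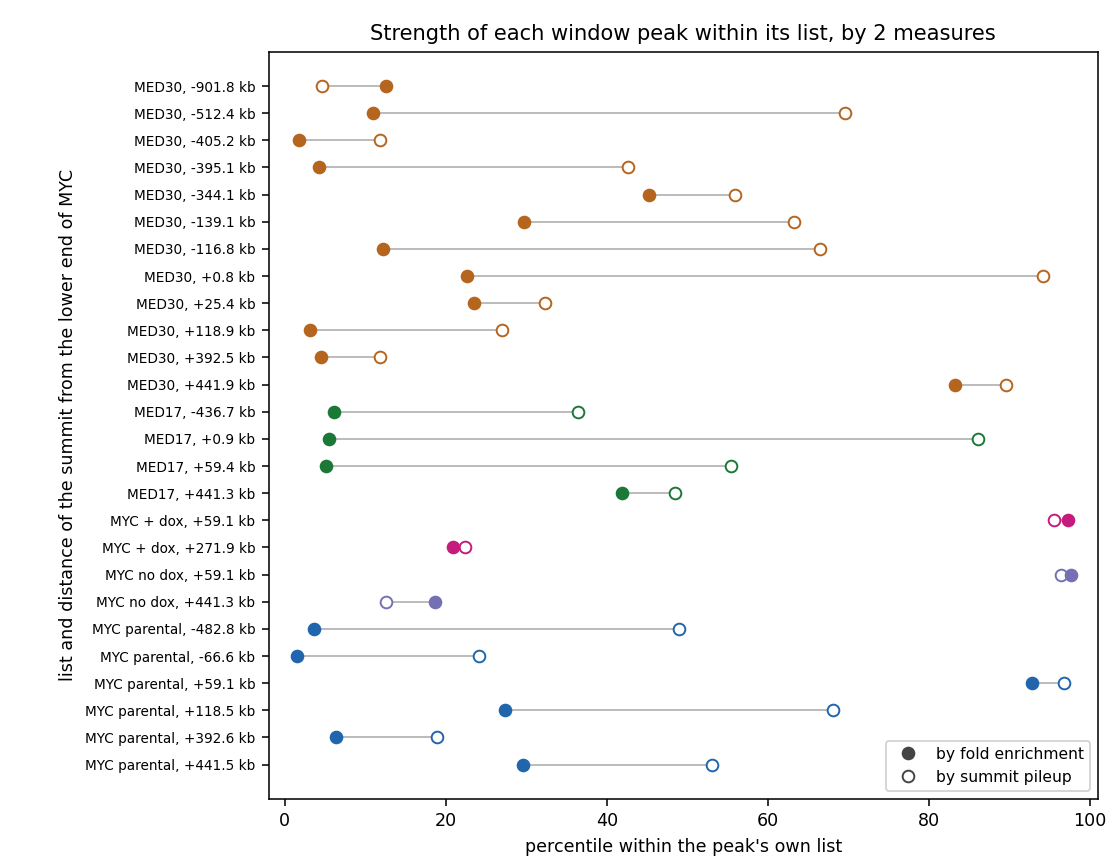
For each of the 26 peaks, named by list and by the distance of its summit from the lower end of MYC, the filled point is the percentile within its own list by fold enrichment and the open point that by fragments at the summit (horizontal axis, percent). The peaks of the 3 MYC lists at +59.1 kb, the start of PVT1, are above percentile 92 on both measures, and the MED30 and MED17 peaks at MYC (+0.8 and +0.9 kb) are far higher by fragments than by fold.

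By fold, only 4 of the 26 peaks were in the upper 50% of their list: the 3 MYC peaks at the PVT1 start and the MED30 peak in LOC124902020. At a q of 0.01 or lower, 22 of 26 remained, with 1 peak fewer in each list except MED17. The median fold of the 12 MED30 peaks was 3.65, against 4.31 over MED30 peaks away from gene ends in the rest of the genome. Their local background was a median of 2.84 times the lowest of the list, against 2.13 over MED30 peaks in the rest of the genome; for MED17 these medians were 3.58 and 2.36, for MYC with doxycycline 3.66 and 1.75, without it 2.90 and 1.93, and for parental MYC 2.37 and 1.66. Each median of the shMED30 line rests on 2 peaks, of which the PVT1 start is the higher. With doxycycline these stood at 5.52 and 1.80, and without it at 4.21 and 1.59, the last being below the 1.93 elsewhere. The part of the higher median background in the low folds was not tested.

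The peaks were packed into the middle of the window. Sites other than the outermost spanned 955 kb, and the largest gaps between neighbouring sites were 389 kb above the outermost site and 204 kb between the CASC8 region and the intergenic MED30 pair. Past the site in LOC124902020, the last 924 kb of the window held no peak of any list; LINC00824 and LINC00976, long noncoding RNA genes, lie in it. The outermost MED30 peak lay 98.1 kb inside the lower edge of the window. Outside the window the nearest peaks were of MED30 below (125556422 to 125556764, fold 5.78, 1179 kb from the edge) and of MED17 above (129939030 to 129939843, fold 6.92, 838 kb from the edge).

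Peak density in the window lay above or below that of other regions depending on the list and on the width of the window. MED30 had 5.07 peaks per Mb in the window, against 2.14 on the rest of chromosome 8 and 3.75 in the rest of the genome, both outside gene-free stretches. MED17 had 1.69 in the window, 2.43 on the rest of chromosome 8 and 4.10 in the rest of the genome. Parental MYC had 2.54, 2.23 and 3.63 peaks per Mb in the same 3 places, MYC with doxycycline 0.845, 0.537 and 0.682, and MYC without it 0.845, 0.544 and 0.904. Of the 10 ratios of window to elsewhere, 9 had 1 inside their exact 95% interval. The other was MED30 against the rest of chromosome 8, at 2.37 (1.21 to 4.20). That ratio was 3.42 with 0.5 Mb on either side of the genes and 1.38 (0.724 to 2.39) with 2 Mb. These intervals treat peaks as independent and describe counting error in the chosen window, and no ratio was tested. The ratio of MED30 to the rest of the genome was 1.35 (0.699 to 2.36) as reported, 1.95 with 0.5 Mb on either side of the genes and 0.794 with 2 Mb. That of MED17 to the rest of chromosome 8 was 0.695 (0.188 to 1.79) as reported, 1.21 with 0.5 Mb and 0.560 with 2 Mb.

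The window is poor in protein-coding genes, with 2 of them (MYC and POU5F1B) or 0.845 per Mb, against 5.10 on the rest of chromosome 8 and 6.96 in the rest of the genome. Away from gene ends, where 11 of the 12 MED30 peaks lay, MED30 had 4.65 peaks per Mb in the window against 1.03 in the rest of the genome, a ratio of 4.53. For MED17, with 2 such peaks, the ratio was 0.951, and for parental MYC, with 4, it was 1.65. Among the upper 50% of each list by fold, 1 MED30 peak was left in the window and the density ratio of all MED30 peaks to the rest of the genome was 0.229.

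Of the 30 annotated genes in the window (2 protein-coding, 19 long noncoding RNA, 5 microRNA and 4 pseudogenes), 4 had a peak within 1 kb of an end: MYC, PVT1, LOC105375754 and MIR1204, a microRNA gene inside PVT1 that begins 460 bp past the MED17 peak at the PVT1 start. Among the 19 long noncoding RNA genes, 0 had a MED30 peak at an end (12.9% of all such genes), 1 a MED17 peak (14.2%), 1 a MYC peak with doxycycline (1.43%), 1 without it (2.43%) and 2 in parental cells (11.7%), numbers too small to set apart from those shares. CASC11, which lies directly below MYC, had no peak within 1 kb of either end, but the MED30 peak at MYC begins 1125 bp from its upper end.

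MED30 and MED17 met at 2 sites of the window. Of 12 MED30 peaks, 2 overlapped a MED17 peak (16.7%, exact 95% interval 2.09 to 48.4), against 77.3% of the whole MED30 list; of 4 MED17 peaks, 2 overlapped MED30, against 71.5% of the whole MED17 list. Where overlap had to cover 50% of both peaks, the share of MED30 window peaks was 8.33%. Away from gene ends, 1 of 11 MED30 window peaks overlapped MED17 (9.09%, 0.230 to 41.3), against 54.6% of all 2963 such MED30 peaks. In the rest of the genome, overlap of these MED30 peaks with MED17 was 25.3% in the lowest decile by fold and 95.3% in the highest; weighted to the deciles of the 11 window peaks it was 39.2%, inside the interval of the window share. Over all such peaks with a fold between the lowest and highest of the 11 it was 51.1% (49.1 to 53.0), above that interval. The shared peaks were those at MYC and in LOC124902020.

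MYC in parental cells met MED30 at 3 of its 6 window peaks, against 57.4% of its whole list, and MED17 at 2 of 6, against 62.0%. With either subunit it shared 4 of 6 (66.7%, 22.3 to 95.7), against 70.1% of its whole list, a share near that background. Where overlap had to cover 50% of both peaks, the window share was 33.3%. At 2 of those 4, inside PVT1 and past its end, a MED30 peak was listed without a MED17 peak. At the PVT1 start a MED17 peak was listed without a MED30 peak. By fold these MED30 peaks stood at percentiles 3.18 and 4.54 of their list and this MED17 peak at 5.16 of its own. Whether the other subunit was absent there or fell below the listing threshold was not tested. Seen from MED30, 3 of 12 window peaks overlapped parental MYC (25.0%, 5.49 to 57.2), against 67.1% of the whole list and 46.0% of MED30 peaks away from gene ends.

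**Figure D4:**
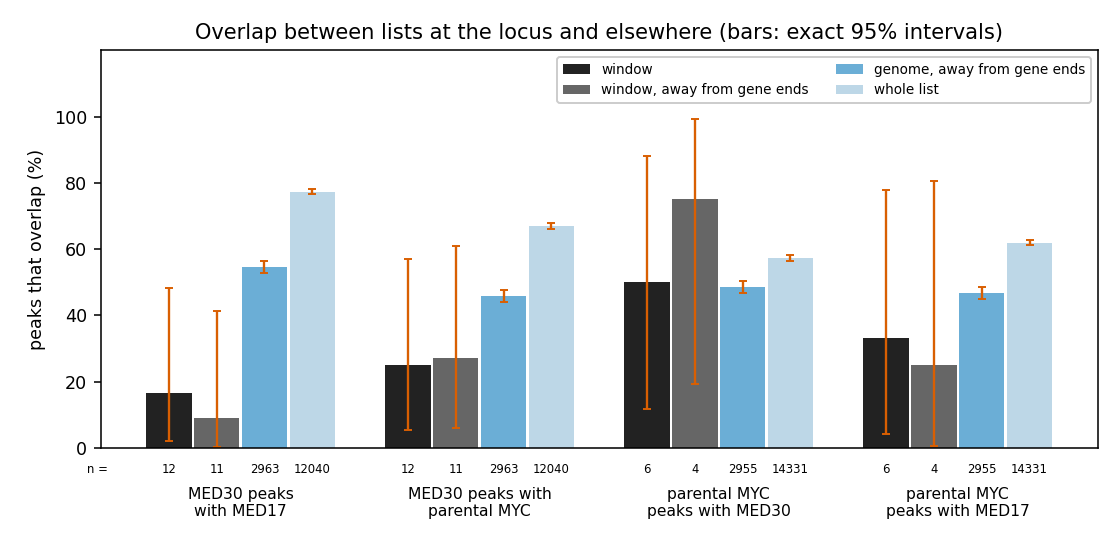
Bars give the percent of peaks of one list that overlap another by at least 1 bp, in the window, in the window away from gene ends, over the genome away from gene ends and over the whole list, with exact 95% intervals for counting error and the number of peaks under each bar. MED30 overlaps MED17 at 16.7% of window peaks and 77.3% of its whole list, and the wide intervals of the window bars come from 12 peaks or fewer.

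The comparison with and without doxycycline addresses MYC binding when the hairpin against MED30 is switched on, with the depletion itself not checked here. At the locus the MYC peak at the PVT1 start was present in both groups, 1 weak peak was listed only with doxycycline and 1 only without it. Of 2 peaks with doxycycline, 1 was shared with the group without it, against 45.1% of the whole list; of 2 peaks in the group without doxycycline, 1 overlapped a doxycycline peak, against 28.2%. Against parental MYC, 1 of 2 peaks with doxycycline overlapped (43.6% of the whole list) and 2 of 2 without it (48.0%). Of the 6 parental MYC peaks, 1 was found with doxycycline (14.3% of the whole list) and 2 without it (24.5%).

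Overlap depended on strength in these lists, and each list of the shMED30 line held 1 strong and 1 weak peak at the locus. The PVT1 peak without doxycycline was in the highest decile by fold of its list on chromosome arms, where 77.7% of peaks (exact 95% interval 72.1 to 82.6) overlapped one with doxycycline. The LOC124902020 peak without doxycycline was in the decile above the lowest, where 10.4% did (6.96 to 14.7). Scaled by the lowest backgrounds of both lists, its 5 fragments at the summit (exact Poisson 95% interval 1.62 to 11.7) would be 3.00 in the doxycycline library. The smallest peak listed in that library has 3. The local background at this site was 1.59 times the lowest of its list, so the smallest count listed elsewhere need not suffice there. Scaled in the same way, the doxycycline-only peak in PVT1, with 4 fragments, would have 6.67 in the library without doxycycline. The smallest peak listed there has 4. In the decile of the doxycycline list that holds this doxycycline-only peak, 18.3% of peaks overlapped one without doxycycline. With 1 library per group, loss or gain of these weak peaks cannot be told apart from sampling.

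The pattern at MYC, both Mediator subunits at a gene end and no peak in the 3 MYC lists, was common. It was found at 1957 of 38340 protein-coding and long noncoding RNA genes (5.10%), 1529 of them protein-coding. Among all 1957, MYC ranked 1600 by MED30 fold and 1888 by MED17 fold. The genes with this pattern and the nearest pair of folds were SPECC1 and its neighbour SPECC1-DT, which share the peaks (MED30 4.03, MED17 3.31), PRAF2 (4.04 and 3.36), CCDC32 (4.03 and 3.40) and COPS5, the catalytic subunit of the COP9 signalosome (3.89 and 3.37). Their distances from MYC, over the log2 folds of 2 lists, were 0.02 to 0.04.

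The pattern at PVT1, all 3 MYC lists and MED17 without MED30, was found at 65 genes (0.170%), 46 of them protein-coding and 19 long noncoding. Among these 65, PVT1 ranked 5 by MYC fold with doxycycline, 3 without it, 20 in parental cells and 63 by MED17 fold. The nearest in fold over 4 lists were PDCD2L, the neighbours LOC646903 and PFN2 (profilin 2, an actin-binding protein) and the neighbours CCDC88C (a regulator of Wnt signalling) and CCDC88C-DT, at log2 distances of 0.73, 0.76 and 0.86. At CCDC88C the folds were 3.98 for MED17, 13.0 for MYC with doxycycline, 16.9 without it and 12.1 in parental cells. At PDCD2L they were 4.08 for MED17, 7.67 with doxycycline, 10.0 without it and 6.10 in parental cells.

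The MYC network is the family of MYC proteins, their partner MAX and the factors that compete for it. Of its 13 genes, MYC included, 7 had MED30, MED17 and parental MYC peaks at an end, against 31.2% of protein-coding genes. Of the 13, 9 had a MED30 peak (41.7% of protein-coding genes), 10 a MED17 peak (47.9%), 3 a MYC peak with doxycycline (4.71%), 4 without it (8.55%) and 10 in parental cells (39.0%). The 13 were picked by known function and are not a sample of protein-coding genes, and their shares were not tested. Within the network MYC was the 1 gene with both subunits and no MYC peak, and it is counted in the MED30 and MED17 numbers. MAX had folds of 5.79 for MED30, 4.15 for MED17 and 7.81 for parental MYC and no peak in the shMED30 line. MXD1, which represses MYC targets as a dimer with MAX, was the 1 network gene with a peak in all 5 lists (MED30 5.40, MED17 5.17, MYC with doxycycline 8.0, without it 8.71, parental 10.5).

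MXD3, another repressor partner of MAX, had MYC folds of 5.32 with doxycycline, 10.1 without it and 10.0 in parental cells, with MED30 (3.93) and no MED17. MLXIP, the glucose-responsive factor MondoA, shared the pattern of PVT1, with MED17 at 5.17 and MYC at 7.07 with doxycycline, 6.78 without it and 7.58 in parental cells. Its relative MLXIPL (ChREBP) had MED17 at 3.93 and MYC at 5.68 without doxycycline and 4.42 in parental cells, and no peak with doxycycline. MYCL had MED30 at 4.15, MED17 at 4.21 and parental MYC at 4.61. MYCN and MXI1 had no peak at an end in any list.

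**Figure D5:**
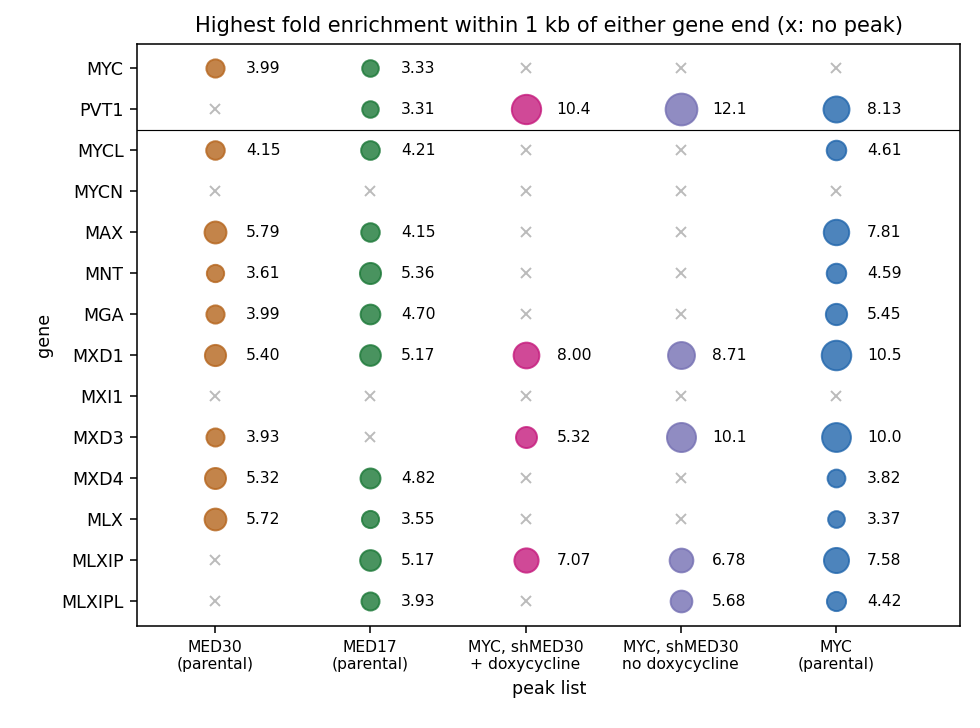
For MYC, PVT1 and the other 12 genes of the MYC network (rows), the number beside each point is the highest deposited fold enrichment of a peak within 1 kb of either gene end in each list (columns), point size follows fold, and a cross marks no peak. MYC and PVT1 split the lists between them except for MED17, and MXD1 is the network gene with a peak in all 5.

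Genes known to act on MYC transcription carried all 3 parental lists at 9 of 12, against 31.2% of all protein-coding genes: MED30 was found at 10, MED17 at 10, MYC with doxycycline at 2, without it at 2 and in parental cells at 9. CNBP and HNRNPK, which bind nucleic acid at the MYC promoter, had peaks in all 5 lists, with MYC folds at HNRNPK of 7.65 with doxycycline, 9.17 without it and 11.2 in parental cells. TCF7L2, a Wnt effector, had MED30 alone (5.07), and KLF5 had none. The shares of each list over protein-coding genes are those given for the network. The regulator and turnover genes were picked by known function and are not a sample of protein-coding genes. Their shares were not tested against that background. Of 10 genes for turnover of MYC protein, 9 had MED30, 10 had MED17, 1 had MYC with doxycycline, 1 without it and 9 in parental cells; the 1 with MYC in the shMED30 line was USP36, a nucleolar deubiquitinase (MYC 4.36 with doxycycline, 7.06 without it, 5.78 in parental cells).

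None of 14 other genes of long noncoding RNAs had the lists of PVT1. That pattern was found at 19 of all 18303 long noncoding RNA genes (0.104%), so its absence from 14 genes does not set PVT1 apart from them. The annotation counts 1 of the 14, TUG1, as protein-coding. Of the 14, 10 had MED30 (12.9% of all long noncoding RNA genes), 9 had MED17 (14.2%), 0 had MYC with doxycycline (1.43%), 3 without it (2.43%) and 8 in parental cells (11.7%), and 4 had none. The 14 are well-studied genes, not a sample of the class. SNHG1, a small nucleolar RNA host gene, had MED30 at 10.0, MED17 at 4.27, and MYC at 6.05 without doxycycline and 8.50 in parental cells. TUG1 had MED30 at 4.67, MED17 at 7.50, and MYC at 5.95 without doxycycline and 6.80 in parental cells. MIR17HG, the host of a microRNA cluster that MYC is known to activate, had MED30 at 4.77, MED17 at 6.73 and parental MYC at 7.91. In the doxycycline and no-doxycycline lists PVT1 thus had higher folds than any of these 14 genes, of which 0 and 3 had a peak to compare. In parental cells GAS5 (9.55) and SNHG1 (8.50) were above PVT1 (8.13), and the others with a peak were below it.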

How the data were processed

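Peaks of 5 ChIP-seq libraries were used as deposited. Per the submitters' processing notes the tools were Trim Galore, Bowtie2, deepTools and MACS2 on hg38; their versions, and whether MACS2 had an input control, were not given in the sources used here. Every deposited list holds, per peak, a fold (a ratio of summit fragments to local background), −log10 p and −log10 q, and a score, which the authors' peak caller made; each list is 1 library. Summit counts and local backgrounds were recovered from fold and p, with 1 added to both counts and p as a Poisson tail, matching within 0.002 log10 units for 99.5% to 99.9% of peaks. Genes were placed with RefSeq (GRCh38.p14, no strand given); a peak within 1 kb of either gene end counted as at that gene. Overlap means at least 1 bp. Shares carry exact Clopper-Pearson and fragment counts exact Poisson 95% intervals, which treat peaks as independent. Fold is compared within a list; folds of different lists are set side by side as values. Genes named were all in the window, the 5 nearest in fold to MYC and to PVT1 among genes with the same lists, and members of 4 gene lists; some genes that the rule takes are not reported here. The members and lists were chosen with earlier results of these data known. Scripts (Python 3.11.15, numpy 2.4.6, pandas 2.3.3, scipy 1.17.1) were tested on simulated data. Genome sequence was not used here.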

Additional observations from a re-analysis of the deposited data

How the results depend on the processing

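Of 157 values recomputed under 10 alternative settings, 25 moved and 132 did not, a count moving when it changed by over 1.5 times and a share or ratio when it left the 95% interval of the reported value. Those intervals are wide: with 0.5 Mb or 2 Mb on either side, 8 of the 10 density ratios fell on the other side of 1 at least once without leaving them. The share of peaks without doxycycline that overlapped one with it, on 2 peaks, had limits of 1.26 to 98.7. The setting of q at or below 0.05 could move little, since all 26 window peaks already passed it. Its values add to the count that did not move. Reciprocal overlap of 50% gave 8.33% for MED30 with MED17 and 33.3% for parental MYC with Mediator. Keeping the upper 50% of each list by fold moved most: the window then held 1 MED30 peak, 0 MED17, 1 MYC with doxycycline, 1 without it and 1 parental MYC peak, in 2 sites, 0 with all 3 parental factors. MED30 overlap with MED17 was then 0%, parental MYC overlap with Mediator 0%, and overlap of peaks without doxycycline with those with it 100%, each on 1 peak. Density ratios to the rest of chromosome 8 and of the genome became 0.391 and 0.229 for MED30, 0 and 0 for MED17, and 0.376 and 0.245 for parental MYC. MYC then had a peak in 0 lists, 118 genes had the PVT1 pattern, and 4 network genes had MED30 and 3 MED17. At q of 0.01 or lower, MYC had 1 window peak with doxycycline and 1 without it, which overlapped (100%). With 2 Mb on either side, 2 sites held all 3 parental factors. Within 0.5 kb of gene ends, MYC had a peak in 1 list. Depth limits the shMED30 lists, whose smallest peaks have 3 fragments with doxycycline and 4 without it. No paired analysis was possible because each group holds 1 library.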
